A study of Homo sapiens with 9 samples.

Results

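FAM30A, a long non-coding RNA, and AK5, a protein-coding adenylate kinase, are 2 of the 14812 genes with a named row on whole-transcript arrays of WM266-4 melanoma cells given a miR-199a-3p mimic, a synthetic copy of that microRNA. They were chosen from measured values of these arrays, as genes that stood higher than control at both doses of the mimic, so their differences from control are given as a description, with no test. WM266-4 is an established human line from a melanoma metastasis, and the cells of all groups carried GFP. Cells were transfected with Lipofectamine 2000 and RNA was taken after 48 h. The 3 groups were a control microRNA at 0.5 nM (n = 3), the mimic at 0.5 nM (n = 3) and the mimic at 0.25 nM (n = 3), labelled as biological triplicates of this one line. No control was given at 0.25 nM, so both doses were set against the same 3 control arrays and are not independent comparisons.

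FAM30A is transcribed from inside the immunoglobulin heavy chain locus and is known from B cells and blood progenitors; it encodes no known protein. Adenylate kinases move a phosphate group between ATP, ADP and AMP and so hold these nucleotides in balance, and AK5 is a cytosolic member known mainly from brain. A microRNA pairs through its seed, the bases near its 5′ end, with sites in messenger RNAs and lowers their amount or translation. Neither member is described here as a target of the microRNA, and the array data do not separate direct from indirect changes.

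The mature sequence of the microRNA is shown because every mimic array rests on it. Capitals mark the seed (bases 2 to 8), and the sequences are those of RefSeq on GRCh38.p14. The first is encoded on the minus strand at chr19:10817429-10817450 (MIR199A1) and again at chr1:172144554-172144575 (MIR199A2), and miR-199b-3p from chr9:128244745-128244766 (minus strand) has the same 22 bases. The microRNA at chr2:189133082-189133103 (minus strand) is shown because it has the same seed. The arrays were not read as a measure of the short mimic, so its uptake was not checked here.
hsa-miR-199a-3p: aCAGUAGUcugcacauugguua
hsa-miR-3129-5p: gCAGUAGUguagagauugguuu

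The promoter windows of both members are shown so that the start regions of the 2 chosen genes can be set side by side. Each window runs from 250 bases before to 50 bases after a start site in RefSeq (GRCh38.p14), on the plus strand, at chr14:105917729-105918028 for FAM30A and chr1:77281769-77282068 for the first listed start of AK5. Capitals mark the only matches found to the motifs searched, CATGTG in FAM30A and GGGCGG, read on either strand, in AK5.
FAM30A: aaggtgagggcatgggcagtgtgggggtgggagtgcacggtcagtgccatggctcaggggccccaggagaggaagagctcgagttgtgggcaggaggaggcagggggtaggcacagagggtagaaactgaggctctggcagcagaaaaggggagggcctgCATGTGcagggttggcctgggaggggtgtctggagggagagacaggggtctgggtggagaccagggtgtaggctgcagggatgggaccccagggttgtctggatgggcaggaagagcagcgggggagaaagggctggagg
AK5: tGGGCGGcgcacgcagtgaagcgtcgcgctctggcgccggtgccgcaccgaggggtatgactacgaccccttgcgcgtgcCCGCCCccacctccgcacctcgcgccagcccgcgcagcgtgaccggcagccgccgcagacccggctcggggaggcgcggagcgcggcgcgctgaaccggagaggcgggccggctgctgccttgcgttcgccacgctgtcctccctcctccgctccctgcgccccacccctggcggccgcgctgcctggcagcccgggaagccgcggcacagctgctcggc

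The windows differed in composition. The FAM30A window held 65% G and C but only 3 CpG dinucleotides, more CpG than 18.2% of 35116 promoter windows. The AK5 window held 78% G and C and 46 CpG dinucleotides, more CpG than 97.1% of the windows; over all windows the medians were 58.7% and 14. Motif searches on both strands covered TATAAA (found in 11.5% of all windows), CCAAT (34.6%), GGGCGG (45%), CACGTG (7.26%), CATGTG (11.1%), TGANTCA (7.71%), TGACGTCA (1.85%) and ATGCAAAT (1.77%). FAM30A held 1 CATGTG, an E-box of the kind read by the melanocyte factor MITF, at base 161. AK5 held 2 GGGCGG boxes, the letters read by Sp family factors, at bases 2 and 81. The window of a second AK5 start, chr1:77282837-77283136, had 60.7% G and C, 15 CpG and 1 GGGCGG at base 232. A match is a description of the letters, and the members shared no motif of those searched.

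Signal was read for markers of the melanocyte lineage, of which 8 of 12 listed had a named row. TYR, which makes melanin, had a mean log2 intensity of 12.74 ± 0.05 in control (SD, n = 3), and the melanosome protein PMEL 12.19 ± 0.02. The mean over the 7 markers with a value on all arrays lay between 10.44 and 10.55 on all 9 arrays. The measured markers of the labelled lineage thus kept a high mean signal in every group, though S100A1 was at 6.84 in control. Signal alone does not identify the cells: CD22, a B cell marker, was at 10.88 in control.

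Values are log2 intensities as deposited, after each array was shifted to one median (control arrays by 0.08, the 0.5 nM arrays by -0.01 to 0.00, the 0.25 nM arrays by -0.08 to -0.06). Exactly equal values on all 3 arrays of a group made up 47.8% of the table's rows in control, 48.6% at 0.5 nM and 42% at 0.25 nM, while arrays of different groups shared no equal value in 27 pairs of arrays. The limma error rests on the spread of such arrays, and with so many ties its p-values understate the error of a difference between treatments. No label says whether the groups were processed together. A difference in processing between groups cannot be told apart from treatment or dose here. Of 14812 genes, 63.0% passed that model (Benjamini-Hochberg adjusted p under 0.05) for 0.5 nM against control, 4918 higher (33.2%) and 4418 lower (29.8%), and 64.1% for 0.25 nM, 4483 higher and 5015 lower. The split follows the scale of the arrays. Without the shift, the median difference of all genes was 0.10 at 0.5 nM and 0.14 at 0.25 nM. The split was then 6663 to 2975 and 7516 to 2531. With the shift taken over all rows of the table it was 3866 to 5228 at 0.5 nM. The column of 0.25 nM replicate 3 held no value with a 0 straight after the point, which 4178 to 4774 values of each other array had, so values of fewer than 10 digits there were left out, 19.1% of genes. FAM30A and AK5 kept all 9 values.

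FAM30A stood higher in every mimic array than in any control array. Its log2 intensity was 4.040 on all 3 control arrays. At 0.5 nM it was 5.727, 5.716 and 5.722 in replicates 1, 2 and 3. At 0.25 nM it was 5.427, 5.409 and 5.409. The 3 groups formed separate levels without overlap, lowest in control, next at 0.25 nM and highest at 0.5 nM. The mean was 4.04 ± 0.00 in control, 5.72 ± 0.01 at 0.5 nM and 5.41 ± 0.01 at 0.25 nM (SD, n = 3 each). The difference from control was 1.68 at 0.5 nM, 3.21-fold, and 1.37 at 0.25 nM, 2.59-fold. Ordered by difference from control, FAM30A came first of 14812 genes at 0.5 nM and 11th at 0.25 nM.

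AK5 also stood higher in every mimic array than in any control array, by a smaller amount. Its log2 intensity was 6.430 on all 3 control arrays. At 0.5 nM it was 7.236, 7.224 and 7.226. At 0.25 nM it was 7.395, 7.466 and 7.466, with replicate 1 the lowest of the 3. Here control was lowest, 0.5 nM next and 0.25 nM highest, again without overlap. The mean was 6.43 ± 0.00 in control, 7.23 ± 0.01 at 0.5 nM and 7.44 ± 0.04 at 0.25 nM (SD, n = 3 each). The difference from control was 0.80 at 0.5 nM, 1.74-fold, and 1.01 at 0.25 nM, 2.02-fold. Its place in the order of differences was 209 at 0.5 nM and 72 at 0.25 nM.

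**Figure D1:**
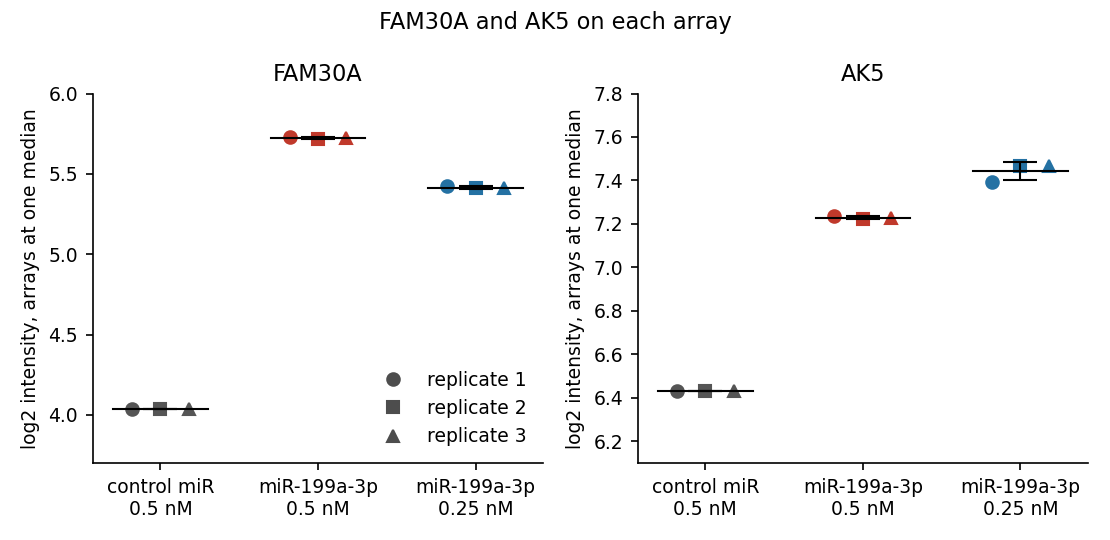
Log2 intensity of FAM30A (left) and AK5 (right) on each of the 9 arrays, arrays at one median, by group; each symbol is 1 replicate, and lines give the mean ± SD. FAM30A lies at 4.040 in control and between 5.409 and 5.727 with the mimic, and AK5 at 6.430 in control and between 7.224 and 7.466 with the mimic.

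All mimic arrays lay above all control arrays in 22.6% of genes and below them in 22.3%, so such a separation was common here. In the limma model 18.9% of genes were called higher at both doses. By the size of the difference FAM30A stood near the top of the order of genes and AK5 lower, and both were chosen on these differences from control. A difference above 1 at both doses was found in 15 of 14812 genes (0.101%), FAM30A among them, and all 15 had a mean signal below the median of gene means, 6.25. The mean signal of FAM30A over all arrays was 5.06 and that of AK5 7.03. Differences at both doses at least as large as the smaller one of AK5 were found in 52 genes (0.351%), of which 49 had a mean signal below that median; AK5 was 1 of the other 3. Differences between groups were wider among dim genes: the SD over genes of the 0.5 nM difference was 0.377 for the 7406 genes below the median and 0.210 for the 7406 above it, and at 0.25 nM it was 0.382 and 0.223. Signal on this array depends on the probes as well as on the amount of RNA, so the levels of FAM30A and AK5 do not rank the 2 transcripts. In bulk RNA, fewer expressing cells and less RNA per cell cannot be told apart.

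The control value of FAM30A was a common one. Each control array held exactly that value in 321 to 359 other rows of the 44629, close to the commonest value of those arrays, which 384 to 404 rows shared. At 0.5 nM the value of FAM30A occurred in 0, 0 and 32 other rows, and at 0.25 nM in 34, 43 and 54. The control value of AK5 occurred in 35 to 42 other rows, its 0.5 nM values in 23, 25 and 0, and its 0.25 nM values in 0, 11 and 10. The FAM30A baseline thus sat on a value that many rows took together, and the AK5 baseline on a less shared one. The part of shared values in the differences was not tested.

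The doses differed for both members, in opposite directions. FAM30A was higher at 0.5 nM than at 0.25 nM by 0.31 (SE 0.01, 1.24-fold, limma adjusted p = 6.84e-08), with all 3 arrays of the higher dose above all 3 of the lower. AK5 was higher at 0.25 nM: 0.5 nM minus 0.25 nM was -0.21 (SE 0.02, 1.16-fold, limma adjusted p = 4.26e-05), again with no overlap. In the same model 62.2% of genes differed between the doses (5196 higher at 0.5 nM and 4015 lower; 3961 and 5321 without the shift of arrays), and arrays of the doses did not overlap in 71.9%. An exact permutation test gave p = 0.1 for each member, two-sided, the smallest value that 3 arrays against 3 can give. The SD over genes of the difference between doses was 0.379 for dim genes and 0.206 for bright ones, so the 0.31 of FAM30A and the -0.21 of AK5 were each near the usual size for their part of the signal range. A larger difference at the larger dose was seen in FAM30A and not in AK5. The members were chosen from these same arrays as higher at both doses, which can favour genes in which the doses differ little. The tests between doses are therefore not taken as independent of that choice, and their p-values are given as a description.

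Beside these members, ZNF287, a zinc finger gene, and TXNDC9, a thioredoxin-domain gene, had been called higher at both doses in an earlier look at these data. ZNF287 had means of 6.73 in control, 7.70 at 0.5 nM and 7.58 at 0.25 nM (n = 3 each), differences of 0.97 and 0.84. TXNDC9 had 5.309 on all 3 control arrays, 6.723, 6.712 and 6.710 at 0.5 nM, and 6.190 and 6.172 at 0.25 nM, where replicate 3 was left out (n = 2). Its differences were 1.41 and 0.87. Like FAM30A, both were higher at 0.5 nM than at 0.25 nM, ZNF287 by 0.12 (limma adjusted p = 0.00109) and TXNDC9 by 0.53 (limma adjusted p = 6.69e-08; exact permutation p = 0.2 for 3 arrays against 2, the smallest possible). AK5 was the only 1 of these 4 genes with the higher level at 0.25 nM.

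**Figure D2:**
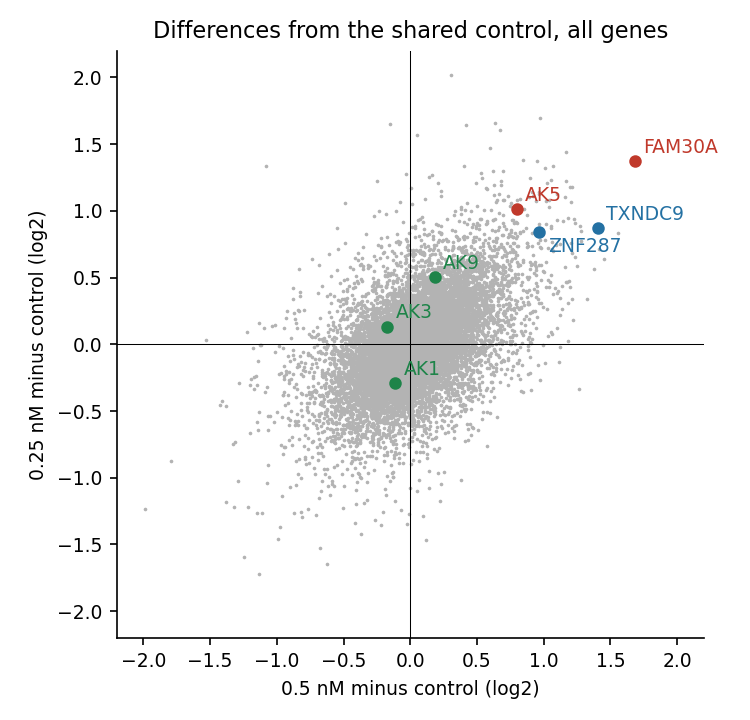
Difference from the shared control at 0.25 nM (vertical, log2) against that at 0.5 nM (horizontal, log2) for all 14812 genes (grey), with FAM30A and AK5 in red, TXNDC9 and ZNF287 in blue and the adenylate kinases AK1, AK3 and AK9 in green. FAM30A lies at the far right, at 1.68 and 1.37, and AK5 at 0.80 and 1.01; both axes use the same 3 control arrays, so a spread along the diagonal is built in.

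Genes whose profile over the arrays was most like that of each member were found by the smallest root mean square distance between values relative to control. For FAM30A these were TXNDC9 (0.304 log2 units over 8 arrays), TMCO2 (0.312), FAM238A (0.319), FANK1 (0.325), USP44 (0.329) and KLF3-AS1 (0.339), the last 5 over 9 arrays. Their differences from control ran from 1.17 to 1.55 at 0.5 nM and from 0.83 to 1.44 at 0.25 nM, so even the nearest profile stood well apart from FAM30A. AK5 had close neighbours in profile: IMMP1L (0.043), PDPR2P (0.047 over 8 arrays), MIR4666A (0.050), VWA3B (0.056), MACROD2 (0.065) and MRPL42P5 (0.079), the others over 9 arrays. IMMP1L, a subunit of a mitochondrial inner membrane protease, had the same rounded differences as AK5, 0.80 and 1.01. Their mean signals, from 2.76 to 5.19, were all below the 7.03 of AK5. By this measure AK5 was the 58th gene from FAM30A, at 0.551, and FAM30A the 2210th from AK5.

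By class of transcript, 26.2% of 1387 long non-coding RNAs and 18.6% of 11910 protein-coding genes were called higher at both doses in the limma model, against 18.9% of all genes. Their median differences were 0.05 and 0.03 for long non-coding RNAs at 0.5 nM and 0.25 nM, and 0.01 and -0.02 for protein-coding genes. The median of mean signal was 4.84 in the first class and 6.72 in the second. At 0.5 nM the model called 50.8% of genes above the median level, against 63.0% of all genes, in either direction. The share called lower at both doses was not counted by class, so a preference for higher calls is not shown. No long non-coding RNA exceeded FAM30A at 0.5 nM and 1 did at 0.25 nM. Of protein-coding genes, 0 exceeded it at 0.5 nM and 6 at 0.25 nM.

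Among the other adenylate kinases, AK9 rose at both doses, AK1 fell at 0.25 nM and AK3 passed at neither dose. Of the 8 other family members listed, 3 had a named row here, and the rest were not analysed here. At 0.5 nM 1 of 3 was called higher, 0 lower and 2 not, and at 0.25 nM 1 was higher, 1 lower and 1 not (limma, all-gene shares 63.0% and 64.1%). Their median differences were -0.11 and 0.13, against 0.01 and -0.02 over all genes.

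AK9, a nucleoside mono- and diphosphate kinase, was at 4.389 on all control arrays, 4.581, 4.570 and 4.567 at 0.5 nM, and 4.904, 4.886 and 4.886 at 0.25 nM. It rose by 0.18 (limma adjusted p = 1.22e-06) and 0.50 (limma adjusted p = 6.64e-09), and 0.5 nM minus 0.25 nM was -0.32 (limma adjusted p = 6.41e-08), the same order of groups as AK5. AK1, the cytosolic enzyme of muscle and many other tissues, was at 8.683, 8.637 and 8.496 in control, 8.510, 8.487 and 8.485 at 0.5 nM, and 8.509, 8.217 and 8.217 at 0.25 nM. Its values overlapped between groups: the difference was -0.11 at 0.5 nM (limma adjusted p = 0.299) and -0.29 at 0.25 nM (limma adjusted p = 0.0200). That call was lost without the shift of arrays (-0.13, limma adjusted p = 0.204), with quantile normalization (limma adjusted p = 0.0553) and without any 1 of control replicate 1, control replicate 2, 0.25 nM replicate 2 or 0.25 nM replicate 3 (limma adjusted p from 0.0597 to 0.0667). AK3, the mitochondrial matrix enzyme that uses GTP, was at 9.696, 9.548 and 9.548 in control, 9.655, 9.382 and 9.236 at 0.5 nM, and 9.840, 9.729 and 9.618 at 0.25 nM. Its difference was -0.17 at 0.5 nM (limma adjusted p = 0.218) and 0.13 at 0.25 nM (limma adjusted p = 0.336). With the replicate number as a block the first passed (limma adjusted p = 0.0379), as it did without 0.5 nM replicate 1 (-0.29, limma adjusted p = 0.0254). None of the 3 came near the 0.80 and 1.01 of AK5, a gene chosen for its rise. With each group's mean taken as 1 unit, limma called 0.0203% of all genes higher with the mimic and 0.101% lower, and none of the 3 (limma adjusted p = 0.960 for AK9, 0.916 for AK1 and 0.994 for AK3). The difference between AK5 and its relatives was not tested.

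Other enzymes of nucleotide balance were called in both directions, with a larger share lower at 0.5 nM than over all genes. Of 35 listed nucleotide kinases and enzymes of AMP metabolism, 19 had a named row. At 0.5 nM 6 were called higher, 9 lower and 4 not, and at 0.25 nM 6 higher, 6 lower and 7 not (limma), against 33.2% higher and 29.8% lower, and 30.3% higher and 33.9% lower, over all genes. Without the shift of arrays the calls were 8 higher and 7 lower, and 12 higher and 6 lower, and with the shift over all rows 3 higher and 10 lower, and 5 higher and 7 lower. The median difference was -0.05 at 0.5 nM and -0.02 at 0.25 nM, against 0.01 and -0.02 over all genes. At both doses in one direction, 4 were higher and 4 lower (all genes: 18.9% and 18.6%).

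NME5, a nucleoside diphosphate kinase family member of cilia and sperm, rose by 0.56 (limma adjusted p = 6.32e-09) and 0.46 (1.52e-08), the largest rise in the list at each dose. AMPD2, which deaminates AMP, rose by 0.27 (limma adjusted p = 0.000677) and 0.24 (0.00128). NME3, another nucleoside diphosphate kinase, changed by -0.62 (limma adjusted p = 1.48e-08) and -0.36 (2.31e-07). ADSS1, which takes part in making AMP from IMP, changed by -0.33 (limma adjusted p = 3.37e-07) and -0.43 (1.68e-07). All other measured enzymes of the list lay between -0.49 and 0.24 at both doses. The highest difference in the list, 0.56, was below the 0.80 of AK5, a gene chosen for its rise. The 7 listed subunits of AMP-activated protein kinase, the sensor of AMP, were not analysed here.

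**Figure D3:**
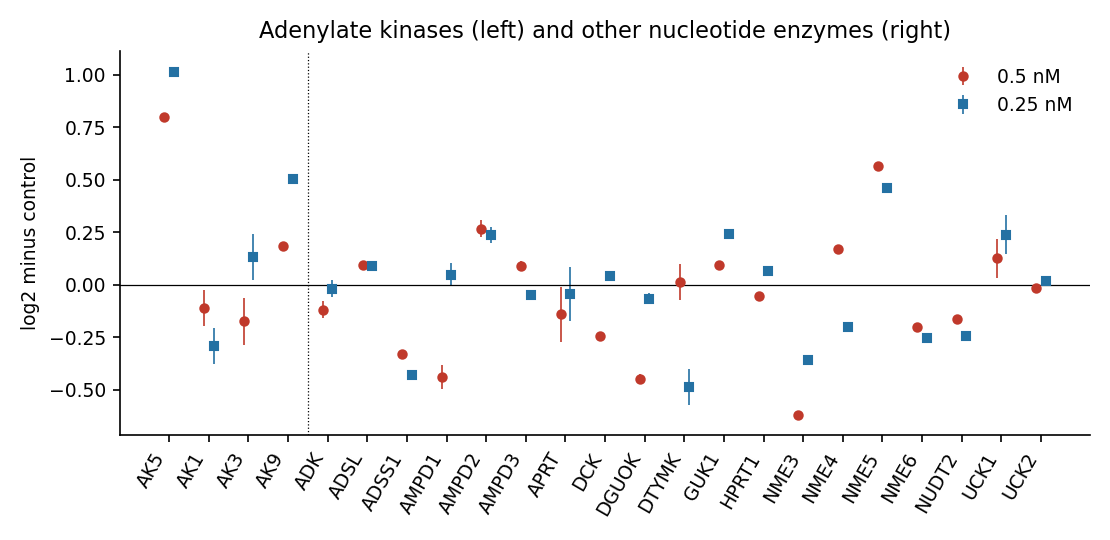
Difference from control (log2) at 0.5 nM (circles) and 0.25 nM (squares) for AK5 and the other measured adenylate kinases (left of the dotted line) and for 19 other nucleotide enzymes (right); error bars are the limma SE. AK5, chosen for its rise, stands at 0.80 and 1.01, and all others lie between -0.62 and 0.56.

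FAM30A lies on chromosome 14 inside the immunoglobulin heavy chain locus, where it overlaps the gene segment IGHD1-1 and lies between IGHD2-2 and IGHV6-1. The nearest measured genes were TEX22, MTA1, CRIP2, CRIP1, TEDC1 and TMEM121 on one side and ADAM6, LINC00226 and LINC00221 on the other, where only 3 lie before the end of the chromosome. At 0.5 nM 3 of these 9 were called higher, 4 lower and 2 not, and at 0.25 nM 1 higher, 6 lower and 2 not (limma). Over all genes 33.2% were higher and 29.8% lower at 0.5 nM, and 30.3% and 33.9% at 0.25 nM, so the split at 0.5 nM was near the background. Without the shift of arrays the counts at 0.25 nM were 3 higher and 1 lower. The median difference was -0.08 at 0.5 nM and -0.09 at 0.25 nM. None was called higher at both doses, and 4 were called lower at both (all genes: 18.9% and 18.6%). TEDC1, a centriole protein gene, changed by -0.52 and -0.36 (limma adjusted p = 2.14e-08 and 1.30e-07), and TMEM121 by -0.53 and -0.09 (4.69e-06 and 0.0342; 0.06 at 0.25 nM without the shift). The genes on either side of FAM30A were TMEM121 and ADAM6, an ADAM family pseudogene also inside the locus, which differed by 0.16 and -0.06 (0.10 at 0.25 nM without the shift). The highest value among the 9 was that of CRIP1 at 0.5 nM, 0.55, from control arrays with an SD of 0.28. A rise of the size seen in FAM30A was not found in any of these neighbours. FAM30A was chosen for its rise and came first of all genes at 0.5 nM, so no neighbour could exceed it there.

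AK5 lies on chromosome 1 and is followed by ZZZ3. The nearest measured genes were LRRIQ3, FPGT-TNNI3K, ERICH3, TYW3, LHX8 and ASB17 before it and USP33, NEXN, FUBP1, MGC27382, PTGFR and IFI44L after it. At 0.5 nM 2 of 12 were called higher, 7 lower and 3 not. At 0.25 nM 8 were called higher, 2 lower and 2 not, against 30.3% of all genes higher and 33.9% lower. The medians were -0.08 at 0.5 nM and 0.20 at 0.25 nM. Between the doses 8 of 12 were lower at 0.5 nM and 2 higher (all genes: 27.1% lower and 35.1% higher), with a median of -0.29. Most of these neighbours thus shared with AK5 the higher level at 0.25 nM, while at 0.5 nM most of them were not above control. TYW3, which modifies transfer RNA, was called higher at both doses, by 0.31 and 0.23 (limma adjusted p = 4.67e-08 and 1.98e-07). NEXN, an actin-binding protein gene, was lower by -0.52 and -0.22 (4.07e-08 and 4.44e-06) and ERICH3 by -0.11 and -0.17 (8.55e-05 and 1.84e-05). ASB17, the nearest measured gene before AK5, differed by -0.50 and 0.19 (limma adjusted p = 5.06e-08 and 8.42e-06), and USP33, the nearest after it, by -0.05 and 0.23 (0.225 and 0.00245; 0.03 at 0.5 nM without the shift). IFI44L, an interferon-induced gene, differed by 0.19 and 0.74 with an SD of 0.42 among its 0.25 nM arrays (limma adjusted p = 0.456 and 0.0162).

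**Figure D4:**
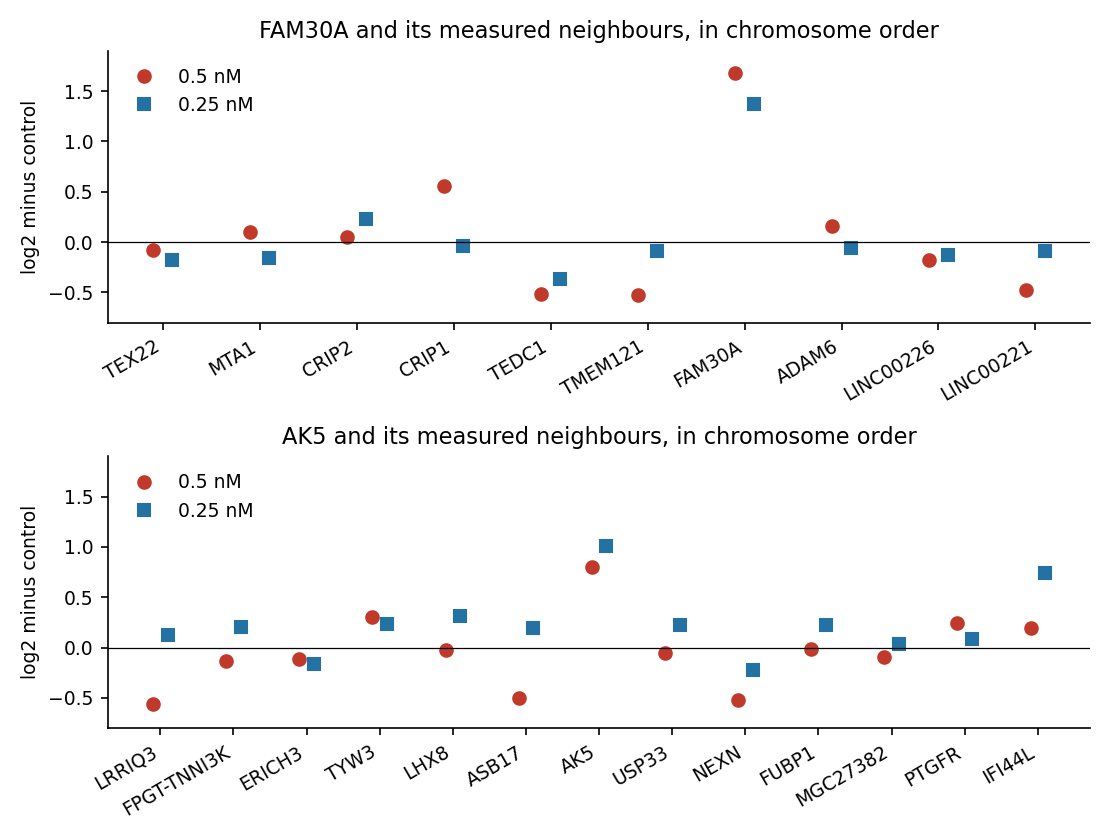
Difference from control (log2) at 0.5 nM (circles) and 0.25 nM (squares) for FAM30A with its 9 measured neighbours and for AK5 with its 12, in chromosome order and not to distance. FAM30A (1.68 and 1.37) and AK5 (0.80 and 1.01), both chosen for their rise, stand above every neighbour at both doses. The nearest values are 0.55 for CRIP1 and 0.74 for IFI44L.

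Markers of the cell types in which the members are known did not move in one direction, apart from the few measured neuronal ones at 0.5 nM, most of them dim. Over all genes 33.2% were called higher and 29.8% lower at 0.5 nM, and 30.3% and 33.9% at 0.25 nM; with so few markers, counts near these shares are not a result about a list. Of 13 B lineage markers 8 were measured: at 0.5 nM 1 was called higher and 4 lower, and at 0.25 nM 3 higher and 3 lower (5 and 1 without the shift of arrays). Medians were -0.11 and 0.04. PAX5, the B cell identity factor, rose by 0.27 and 0.44 (limma adjusted p = 0.000490 and 2.91e-05), while MZB1, of antibody-secreting cells, changed by -0.62 and -1.06 (4.56e-06 and 2.18e-07). The mean of the 5 B lineage markers with all values lay between 5.22 and 5.27 over control arrays, 5.12 and 5.16 at 0.5 nM, and 5.10 and 5.14 at 0.25 nM. CD22 lacked a value on all arrays and was not in that mean. It was bright, at 10.88 in control, 10.77 at 0.5 nM and 11.00 at 0.25 nM (n = 2). Of 10 blood progenitor markers 8 were measured: 2 were called higher and 5 lower at each dose (5 and 1 at 0.25 nM without the shift), with medians of -0.20 and -0.14. HLF, a stem cell transcription factor, rose by 0.34 and 0.33 (limma adjusted p = 8.66e-06 and 1.08e-05), and CRHBP changed by -0.35 and -0.42 (1.41e-07 and 5.44e-08). CD34, the surface marker of these cells, changed by -0.23 and -0.15 (3.13e-07 and 4.01e-06; 0.01 at 0.25 nM without the shift). The mean of the 8 lay at 5.03 on all control arrays, between 4.90 and 4.92 at 0.5 nM, and 4.94 and 4.96 at 0.25 nM.

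Of 11 neuronal markers 4 were measured. At 0.5 nM 4 were called higher, and at 0.25 nM 3 higher and 1 lower, against all-gene shares of 33.2% and 30.3% higher; medians were 0.37 and 0.26. STMN2, a microtubule regulator of neurons, rose by 0.57 and 0.32 (limma adjusted p = 2.32e-06 and 6.58e-05), SYT1, the calcium sensor of synaptic vesicles, by 0.50 and 0.21 (5.03e-08 and 5.63e-06), and SYN1, a vesicle phosphoprotein, by 0.25 and 0.30 (1.30e-06 and 9.10e-07). MAP2, of dendrites, was at 0.13 and -0.18 (0.0149 and 0.00315). The mean of the 2 with all values lay between 6.49 and 6.55 in control, 6.87 and 6.89 at 0.5 nM, and 6.59 and 6.62 at 0.25 nM. STMN2, SYT1 and SYN1 were dim, with control means of 4.54, 4.51 and 5.64, below the median of gene means, 6.25. MAP2, with a control mean of 8.52, was the only measured neuronal marker above the median level. Among genes above that level it was called at each dose, in opposite directions. With group means as units 0 neuronal markers were called. Arrays give no true zero, so no marker can be called absent. The part of these markers in the values of AK5 and FAM30A was not tested.

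Melanocyte markers were steady by their median, -0.01 at both doses, with 2 of 8 called higher and 3 lower at 0.5 nM and 2 higher and 4 lower at 0.25 nM (3 and 2, and 4 and 1, without the shift). MITF, the lineage factor, changed by -0.22 and -0.17 (limma adjusted p = 4.84e-07 and 2.27e-06), and SOX10, which acts upstream of it, rose by 0.32 and 0.11 (2.30e-06 and 0.000966). Of 7 measured keratinocyte markers 1 was called higher and 5 lower at 0.5 nM, and 3 higher and 3 lower at 0.25 nM, with medians of -0.35 and -0.08. Of 3 measured fibroblast markers 2 were called higher at each dose, with medians of 0.14. The shares over all genes were 33.2% higher and 29.8% lower at 0.5 nM, and 30.3% and 33.9% at 0.25 nM. Over 7 and 3 markers respectively, the highest difference at either dose was 0.38 and 0.53, and the lowest -1.04 and -0.02.

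The differences of both members from control held their sign under every setting tried. FAM30A ranged from 1.60 to 1.77 at 0.5 nM and from 1.34 to 1.53 at 0.25 nM over the ways of scaling the arrays. AK5 ranged from 0.75 to 0.89 and from 0.99 to 1.17. With any 1 array left out FAM30A stayed at 1.68 at 0.5 nM and between 1.37 and 1.38 at 0.25 nM, and AK5 at 0.80 and between 1.00 and 1.04. Scaling moved the members more than any single replicate did.

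**Figure D5:**
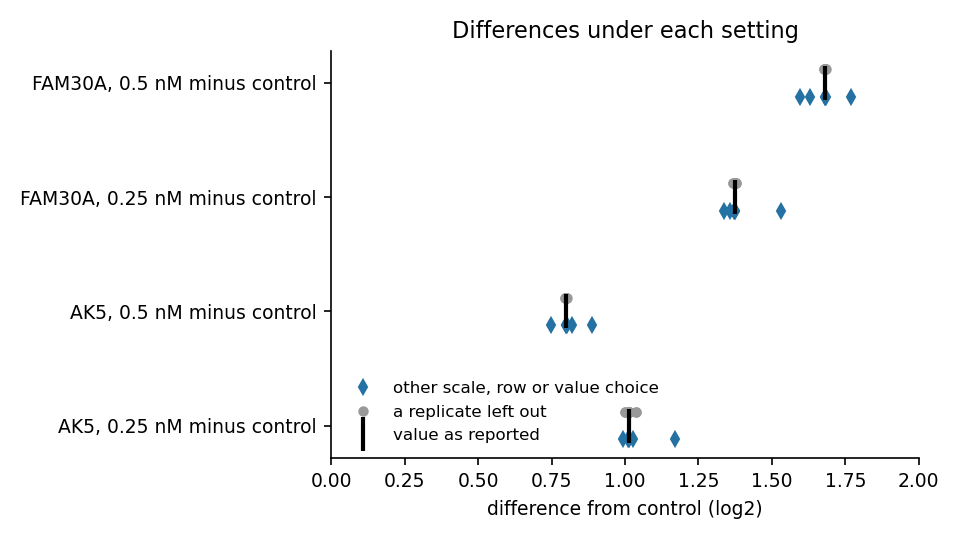
Difference from control (log2) of each member at each dose as reported (black bars), under other choices of array scale, row or value (diamonds) and with 1 replicate left out (grey). All values stay above 0, with FAM30A between 1.34 and 1.77 and AK5 between 0.75 and 1.17.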

How the data were processed

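RNA from 9 transfected cultures was read on Affymetrix whole-transcript arrays. The deposited values are log2 intensities, made by the authors with oligo, affy and RMA, per the submitters' processing notes; their versions, and the genome build, were not given in the sources used here. The table has 44629 rows, of which 15835 carry 1 gene symbol and 28794 none; the brightest row per symbol left 14812 genes. FAM30A and AK5 have 1 row each. Arrays were shifted to one median over genes with a value on all arrays. Differences were fitted with limma 3.58.1 in R 4.3.3 (1 mean per group, two-sided, Benjamini-Hochberg over 14812 genes, threshold 0.05), a script tested on simulated data. The simulated arrays had independent noise and no tied values, so that test does not bear on the ties seen here. Arrays give no read depth; 3 arrays per group limit the precision. Same-numbered arrays of different groups deviated together (r from 0.14 to 0.59 over 9 pairs, a sign from the data and not the design). Replicates 2 and 3 of different groups did so too (r from 0.19 to 0.36), and replicate 1 ran against both (r from -0.48 to -0.22). These r values are not independent, since each deviation was taken from the mean of its own group. The numbers thus do not clearly mark pairs. The fit with the replicate number as a block is used as an alternative. Members and lists were chosen with earlier results of these data known. Genes named are the members, the measured adenylate kinases, from each list at most 2 rises and 2 falls called at both doses, the 6 most alike profiles per member, TXNDC9 and ZNF287, and markers or neighbours that identify a list. Sequences are from RefSeq. Protein sequences were not used here.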

Additional observations from a re-analysis of the deposited data

Results flagged for a closer look

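The doses were compared (0.5 nM minus 0.25 nM) for FAM30A, AK5, TXNDC9, ZNF287 and the 3 other adenylate kinases; all but AK1 differed in the limma model (adjusted p under 0.05), as did 62.2% of all genes. FAM30A differed by 0.31 and AK5 by -0.21. TXNDC9 differed by 0.53 and ZNF287 by 0.12, the same sign as FAM30A. AK9 differed by -0.32 and AK3 by -0.30, the same sign as AK5. The AK3 difference was near the threshold (limma adjusted p = 0.0469), and its arrays overlapped at the 2 doses.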

How the results depend on the processing

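The differences of FAM30A and AK5, from control and between the doses, kept their sign in every setting run; some small differences of markers and neighbours turned without the shift of arrays, as given beside them. The differences of FAM30A from control at 0.5 nM and 0.25 nM were 1.77 and 1.53 without the shift of arrays, 1.60 and 1.34 with quantile normalization, and 1.63 and 1.36 with the shift over all rows, a setting chosen after seeing the data. Those of AK5 were 0.89 and 1.17 without the shift, and 0.75 at 0.5 nM with the shift over all rows. Between the doses, FAM30A stayed at 0.24 to 0.31 and AK5 at -0.28 to -0.20 in every setting run, all past the threshold, the replicate block included (limma adjusted p = 4.67e-06 and 0.000421); FAM30A has no value among genes above the median level. Of 3 adenylate kinases, 1 was called at 0.5 nM: 2 with the replicate block, 0 among genes above the median level, 0 with group means as units, and 1 to 2 with a replicate left out (2 without replicate 1 of every group). At 0.25 nM 2 were called: 1 without the shift, 1 with quantile normalization, 1 above the median level, 0 with group means and 1 to 2 with a replicate left out. Of 19 nucleotide enzymes, 15 and 12 were called, 0 and 0 with group means and 14 to 15 and 12 to 14 with a replicate left out. The replicate block changed no other count by over 1.5 times. The cause of these shifts was not tested, apart from fewer genes above the median level and fewer units with group means.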
